A study of Mus musculus with 336 samples.

Results

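Collagen genes were taken as every gene whose symbol is Col, a number, the letter a and a number, and that averaged at least 1 FPKM in at least 1 of 3 expression tables of mouse skin fibroblasts and liver. FPKM are fragments scaled to transcript length and library size, a level per length. Of 44 collagen symbols in the tables, among 47622 genes, 27 met the rule. They were 9 fibrillar chains, 4 basement membrane chains, 1 network chain (Col8a1), 3 beaded filament chains (Col6a1, Col6a2 and Col6a3), 5 FACIT chains, which sit on the surface of fibrils, 1 anchoring fibril chain (Col7a1), 2 multiplexins (Col15a1 and Col18a1) and 2 transmembrane chains (Col13a1 and Col23a1). The lowest of the 27 was Col9a3, at 1.44 FPKM in fibroblasts, and the closest to miss was Col24a1, at 0.999 FPKM.

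The study compared Bmal1-/- (KO) with wild-type (WT) C57BL/6 mice in cultured mouse skin fibroblasts (MSF) and in ex vivo slices of adult liver of about 500 micron. Bmal1, listed as Arntl, codes for the partner of CLOCK, a DNA-binding protein at the core of the circadian oscillator, and Bmal1-/- denotes loss of both copies, without a driver or cell type restriction given in the labels. All cultures and slices, KO and WT, received 100 nM dexamethasone, a glucocorticoid that resets cellular clocks, for 15 min. Sampling started 48 h after that and was repeated every 3 h, and each long course holds 24 KO and 24 WT values per gene, labelled CT00 to CT69. A shorter liver course holds 3 KO and 3 WT samples at each of T00, T06, T12 and T24. Its labels give no age and no interval between treatment and T00. The labels do not say how many animals or cell lines were used, so a genotype of fibroblasts cannot be told apart from a cell line. Genotype also coincides with the sequencing pool and lanes in fibroblasts and with the lanes in slices, and these cannot be told apart. The labels do not say that samples came from separate animals or cultures, so the p-values measure only how these samples scatter, in part technically.

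Collagens are trimers, most of them secreted and a few held in the cell membrane, whose chains wind into a triple helix, in which glycine recurs at a fixed spacing. Fibrillar chains (types I, III, V, XI and XXVII) build the fibres that give skin and scarred liver their tensile strength, and type IV chains build the sheet under epithelia and around vessels. In liver, stellate cells and portal fibroblasts are known as the main makers of fibrillar collagen, whereas endothelial cells and hepatocytes also make type IV and type XVIII chains. Type VI forms beaded filaments between cells and fibres, type VII anchors the epidermis to the dermis, and type VIII forms hexagonal networks around vessels.

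The repeat can be read in the gene structure. Of 517 inner coding exons of the 9 fibrillar members, 248 were 54 bases long (47.97%), against 9.06% of those of the other members and 0.734% of those of all protein-coding genes (GENCODE vM21, GRCm38). The first such exons of Col1a1 (chr11:94939904-94939957, plus strand) and Col3a1 (chr1:45325360-45325413, plus strand) are shown because these chains carry most of the collagen signal in fibroblasts. Capitals mark glycine codons, 7 of 18 in the first and 6 of 18 in the second.
Col1a1: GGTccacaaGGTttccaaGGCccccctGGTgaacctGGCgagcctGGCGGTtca
Col3a1: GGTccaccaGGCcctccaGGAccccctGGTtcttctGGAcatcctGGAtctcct

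Promoters are shown, as the 150 bases before the RefSeq start (GRCm38.p6), for Col3a1 and Col15a1, which differed most between genotypes in slices, and for Col8a1 and Col4a6, which were furthest apart in fibroblasts in either direction. Each was searched on both strands, as part of a 300-base window from 250 bases before to 50 after the start, for the E-box CACGTG bound by BMAL1 with CLOCK and for its variant CACGTT. The same search was made for the TATA box (TATAAA), for the CCAAT box (written as its name) and for the GC box (GGGCGG). Capitals mark matches. The printed stretches are those of Col3a1 (chr1:45311388-45311537, plus strand), Col15a1 (chr4:47207862-47208011, plus), Col8a1 (chr16:57754738-57754887, minus) and Col4a6 (chrX:141474077-141474226, minus).
Col3a1: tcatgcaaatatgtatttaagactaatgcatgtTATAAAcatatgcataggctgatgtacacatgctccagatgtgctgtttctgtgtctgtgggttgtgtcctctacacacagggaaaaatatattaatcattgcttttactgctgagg
Col15a1: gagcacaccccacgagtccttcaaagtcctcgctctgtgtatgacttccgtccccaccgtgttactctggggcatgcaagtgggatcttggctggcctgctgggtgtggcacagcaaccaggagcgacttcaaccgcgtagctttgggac
Col8a1: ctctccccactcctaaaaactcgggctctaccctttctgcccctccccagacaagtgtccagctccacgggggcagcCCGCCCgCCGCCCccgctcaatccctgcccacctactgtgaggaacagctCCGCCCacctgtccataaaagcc
Col4a6: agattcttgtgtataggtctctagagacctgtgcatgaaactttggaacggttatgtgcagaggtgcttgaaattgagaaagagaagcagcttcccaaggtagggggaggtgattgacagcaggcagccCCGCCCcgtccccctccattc
A window was given for 22 of the 27 members. CACGTG stood in 0 of the 22, against 7.15% of all 32851 promoter windows, and CACGTT in 0 of the 22, against 4.68%. TATAAA stood in 3 (Col3a1, Col11a2 and Col13a1; 13.6% of all windows), CCAAT in 9 (37.4%) and GGGCGG in 16 (35.7%). No match says only that these letters are not in this window.

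Some members are neighbours. Col4a1 and Col4a2 run head to head on chromosome 8, with RefSeq starts that share 22 bases (chr8:11312805-11312826, plus strand). Matches are not marked in this stretch, which holds a GC box (GGGCGG).
Col4a1 and Col4a2: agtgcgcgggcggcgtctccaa
Col4a5 and Col4a6 also run head to head, on chromosome X, with 1343 bases between their starts. Col3a1 and Col5a2 lie 24614 bases apart on chromosome 1, and Col6a1 and Col6a2 lie 85161 bases apart on chromosome 10.

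Before the comparisons, the libraries were checked. Arntl was listed at a mean of 6.84 FPKM in KO and 10.6 FPKM in WT fibroblasts, 4.09 FPKM in KO and 4.50 FPKM in WT slices, and 2.31 FPKM in KO and 1.45 FPKM in WT samples of the short course. These gene-level values cannot tell which exons were read, so they do not check the labels. The defining liver markers Alb, Apoa1, Ttr, Cps1 and Cyp2e1 summed to at least 1557 FPKM in each KO slice and at least 1136 FPKM in each WT slice, and to at most 0.743 FPKM in KO and 0.281 FPKM in WT fibroblasts. The fibroblast markers Pdgfra, Thy1, Dpt, Lum and Dcn summed to 3828 to 6128 FPKM in KO and 2148 to 2646 FPKM in WT fibroblasts. Within genotypes, median correlations of a library with the others ran from 0.892 to 0.926 in fibroblasts, 0.858 to 0.936 in slices and 0.77 to 0.902 in the short course. FPKM carry no read counts, so depth is unknown and no counting interval is given.

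In fibroblasts, collagens were among the most abundant messages, and the highest was Col3a1, a chain of the fibres of elastic tissues. Summed over the 27 genes, collagens took 2.38 ± 0.185% of all FPKM in KO (SD, n = 19 time points with no missing value) and 1.97 ± 0.141% in WT fibroblasts (n = 22). In slices the sum was 0.0192 ± 0.0198% in KO and 0.0268 ± 0.0137% in WT (n = 24 each), and in the short course 0.0194 ± 0.00502% in KO and 0.0147 ± 0.00308% in WT (n = 12 each). The highest members outside fibroblasts were Col4a1 in KO slices, Col3a1 in WT slices and Col18a1, whose C-terminal fragment is endostatin, in both genotypes of the short course. The filter for tests, a mean of at least 1 FPKM over the libraries of a comparison, left 26 members in fibroblasts, 23 in slices and 14 in the short course. Col8a1 and Col23a1 passed it in fibroblasts through WT alone and Col20a1 through KO alone.

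**Figure D1:**
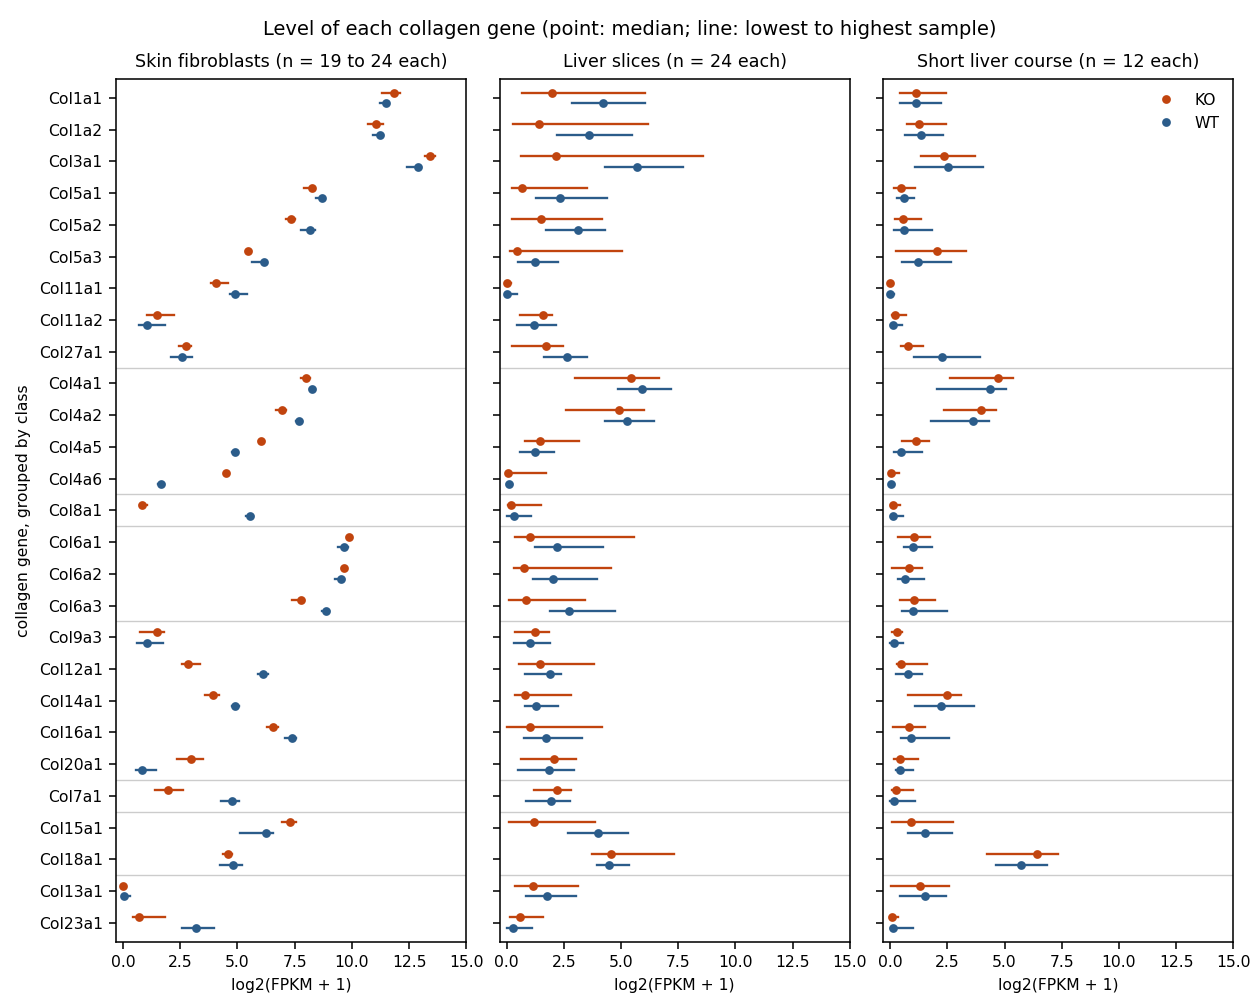
Level of each of the 27 collagen genes as log2(FPKM + 1) in KO (upper mark of each pair) and WT (lower mark) samples of the 3 courses; points are medians and lines run from the lowest to the highest sample. Col3a1 reaches 12737 FPKM in KO fibroblasts, while the slice lines of the fibrillar genes are long, as for Col3a1 at 0.547 to 384 FPKM in KO slices.

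Whether loss of Bmal1 went with different collagen levels in fibroblasts was tested over the 24 time points. The type VIII chain Col8a1, the FACIT chain Col12a1, the anchoring chain Col7a1, the transmembrane chain Col23a1, the type VI chain Col6a3 and the FACIT chain Col14a1 were lower in KO fibroblasts. The type IV chains Col4a6 and Col4a5, the FACIT chain Col20a1 and the multiplexin Col15a1 were higher. None of the 9 fibrillar chains reached the size limit. Thus 10 of 26 members tested were called (adjusted p below 0.05, with a log2 difference of 1 or more in size), 4 higher and 6 lower. Of these, Col8a1, Col23a1 and Col20a1 passed the filter only through the genotype where they are high, so their calls are a description rather than support. Among all 15140 genes tested, 16.3% were called, 6.42% higher and 9.89% lower. The median difference was -0.23 for the members and -0.03 for all genes.

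Col8a1 was at 0.666, 0.790 and 1.04 FPKM (lowest, median and highest of 24) in KO fibroblasts, against 40.1, 45.2 and 50.6 FPKM in WT fibroblasts. Every KO value lay below every WT value, and the WT mean was 55.6 times the KO mean. The difference was -4.67 ± 0.03 on the log2(FPKM + 1) scale (SE, adjusted p = 7.14e-63, limma). Col12a1, which binds the surface of type I fibrils in tendon and skin, averaged 6.24 ± 0.902 FPKM in KO and 68.4 ± 5.13 FPKM in WT (SD, n = 24 each). Its difference was -3.27 ± 0.04 (adjusted p = 2.50e-48, limma). Col7a1 averaged 2.97 ± 0.829 FPKM in KO and 25.5 ± 3.48 FPKM in WT, and Col23a1 averaged 0.825 ± 0.491 FPKM in KO and 9.17 ± 2.80 FPKM in WT (SD, n = 24 each). For these genes too the ranges of the genotypes did not overlap.

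Col6a3, the longest type VI chain, ran from 168 to 237 FPKM in KO and from 409 to 504 FPKM in WT fibroblasts, a difference of -1.12 ± 0.02. Its partner chains Col6a1 and Col6a2 did not reach the size limit. Col6a1 averaged 935 ± 17.6 FPKM in KO and 802 ± 61.4 FPKM in WT, and Col6a2 805 ± 25.4 FPKM in KO and 723 ± 50.8 FPKM in WT (SD, n = 24 each). The ratio of Col6a3 to Col6a1 was 0.227 ± 0.018 in KO and 0.579 ± 0.0302 in WT (SD, n = 24 each), and its ranges did not overlap.

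Col4a6, a chain that pairs with Col4a5 in the basement membrane of skin, was the member that rose most. It was at 20.7, 21.7 and 22.6 FPKM (lowest, median, highest) in KO fibroblasts, against 1.84, 2.17 and 2.47 FPKM in WT fibroblasts. The KO mean was 10.1 times the WT mean, and the difference was 2.85 ± 0.02 (adjusted p = 4.02e-62, limma). Its head-to-head neighbour Col4a5 averaged 64.3 ± 2.65 FPKM in KO and 28.6 ± 1.2 FPKM in WT (SD, n = 24 each), a difference of 1.14 ± 0.02. The other head-to-head pair, which forms the most widespread type IV trimer, did not reach the limit. Col4a1 was at 254 ± 20.7 FPKM in KO and 303 ± 12.9 FPKM in WT, and Col4a2 at 122 ± 9.10 FPKM in KO and 206 ± 8.31 FPKM in WT (SD, n = 24 each). Both were lower in KO at all 24 time points, and the ranges of Col4a2 did not overlap.

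Col20a1 averaged 6.76 ± 1.42 FPKM in KO and 0.830 ± 0.293 FPKM in WT fibroblasts (SD, n = 24 each), a difference of 2.08 ± 0.07. Col15a1 was at 121, 158 and 188 FPKM (lowest, median, highest) in KO, against 33.5, 74.5 and 94.1 FPKM in WT fibroblasts, a difference of 1.22 ± 0.08. Without the first day the Col15a1 difference was 0.99 and below the size limit. Col14a1, at 14.2 ± 1.92 FPKM in KO (n = 24) and 29.2 ± 1.75 FPKM in WT (SD, n = 23), was on the limit at -1.0 ± 0.03, and it was -0.95 after rescaling of the libraries by median of ratios and -0.90 without the first day.

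The fibrillar chains that make up the bulk of the collagen signal differed by less. Col1a1 averaged 3631 ± 582 FPKM in KO (n = 20) and 2826 ± 158 FPKM in WT fibroblasts (n = 23), a difference of 0.34 ± 0.04. Col3a1 averaged 11001 ± 901 FPKM in KO (n = 19) and 7536 ± 742 FPKM in WT (n = 23), a difference of 0.54 ± 0.03, and its ranges did not overlap. Col1a2 averaged 2152 ± 296 FPKM in KO and 2377 ± 164 FPKM in WT (n = 23 each; all SD), a difference of -0.15 ± 0.02. The time points missing here were listed at 0 with a status of FAIL or HIDATA, by which Cuffdiff marks a locus it could not quantify, and the fit drops them. Of these, Col3a1 lacked 5 KO time points and 1 WT time point.

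The 2 chains of type I collagen also stood in different proportion. The ratio of Col1a1 to Col1a2 was 1.68 ± 0.0587 in KO (n = 20) and 1.19 ± 0.0393 in WT fibroblasts (SD, n = 23). It ran from 1.56 to 1.74 in KO and from 1.12 to 1.25 in WT, with no overlap. Col5a1 and Col5a2, chains of the type V collagen that seeds fibrils, were at 296 ± 27.8 and 160 ± 11.9 FPKM in KO, against 408 ± 19.2 and 284 ± 26.3 FPKM in WT (SD, n = 24 each). All KO values of both chains lay below all WT values, with differences of -0.47 ± 0.02 and -0.82 ± 0.03.

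**Figure D2:**
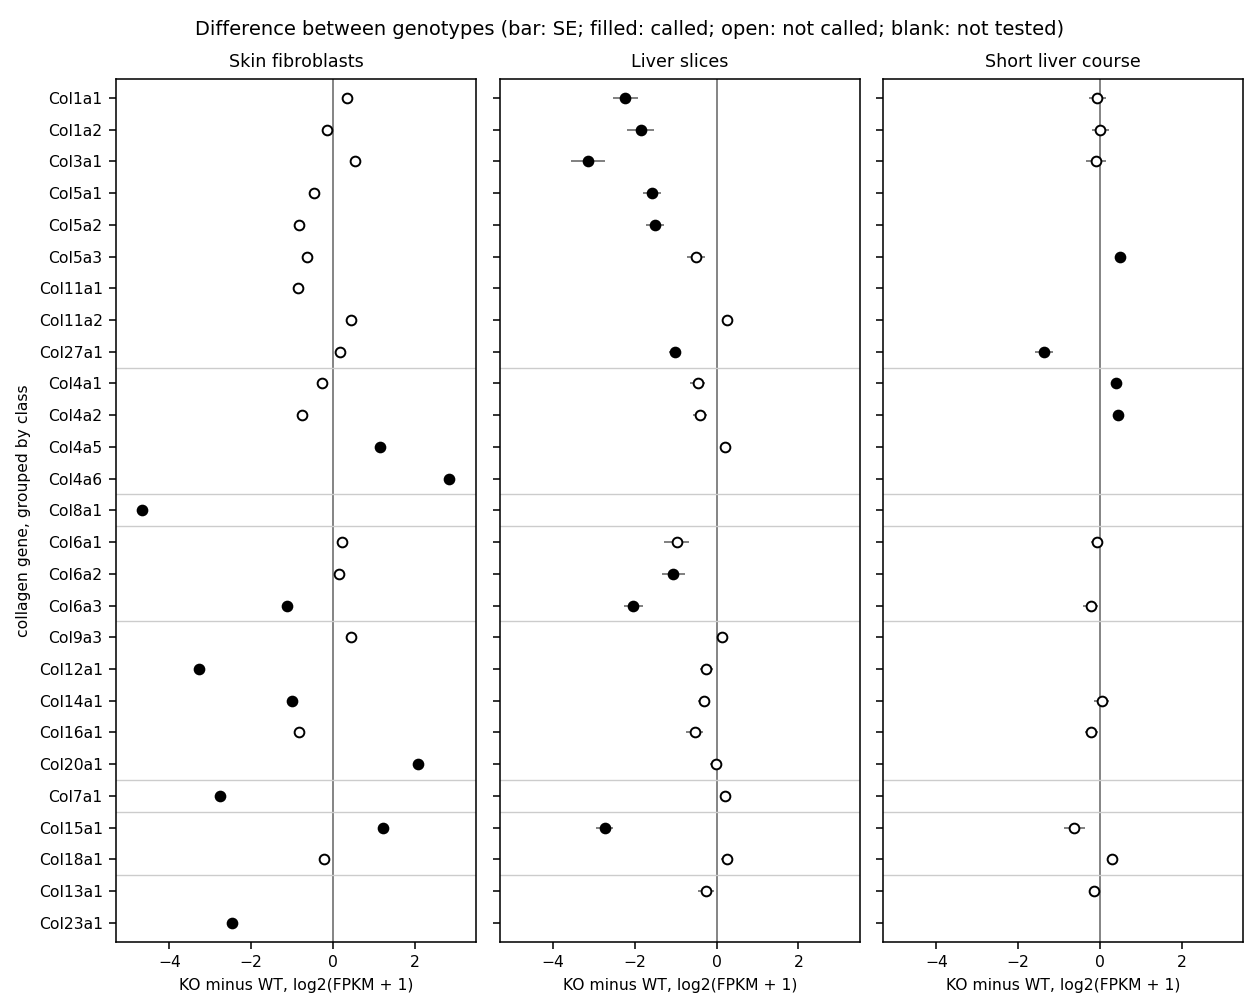
Difference KO minus WT of each collagen gene on the log2(FPKM + 1) scale in fibroblasts, slices and the short course, with SE; filled points were called, open points were not and genes without a point were not tested. Fibroblasts show calls in both directions, from -4.67 for Col8a1 to 2.85 for Col4a6, while the 9 calls in slices are all below 0.

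Genes that modify, secrete, cross-link or bind collagen were counted on a list of 54 symbols. In fibroblasts 16 of 47 tested were called, 7 higher and 9 lower, with a median of -0.23, where 16.3% of all genes were called. By smallest p among those called, these were Itga11, a collagen receptor subunit (2.77 ± 0.95 FPKM in KO and 78.1 ± 9.63 FPKM in WT), Fmod and Dcn, proteoglycans of the fibril surface (3.55 ± 0.03 and 1.86 ± 0.02 on the log2 scale), Loxl2, a cross-linking oxidase (1.17 ± 0.01), Plod1, a lysyl hydroxylase (-1.50 ± 0.02), and Tgfbr2, a TGF-beta receptor (-1.18 ± 0.02). Among the called partner genes, Pcolce2 passed the filter only through WT and Tll1 only through KO, in each case where the gene is high. Their calls are a description rather than support. Some markers of cell types also differed between genotypes, in both directions. The tendon and cartilage markers Tnmd, Scx and Acan summed to 1.03 to 3.35 FPKM in KO and 167 to 281 FPKM in WT fibroblasts, and of the 2 tested, Scx and Tnmd, both were lower. Smooth muscle markers had 2 of 3 tested lower and fibroblast markers had 2 of 5 higher and 2 of 5 lower. The biliary marker Krt19 was higher (3.22 ± 0.04), and the endothelial marker Kdr (-2.47 ± 0.06) and the pericyte marker Rgs5 (-1.32 ± 0.05) were lower. Sox9, Pdgfrb and Cd68 were tested and not called. Tnmd, Kdr and Rgs5 averaged below 1 FPKM in KO fibroblasts and passed the filter through WT. The part of all these markers in the collagen differences was not tested.

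**Figure D3:**
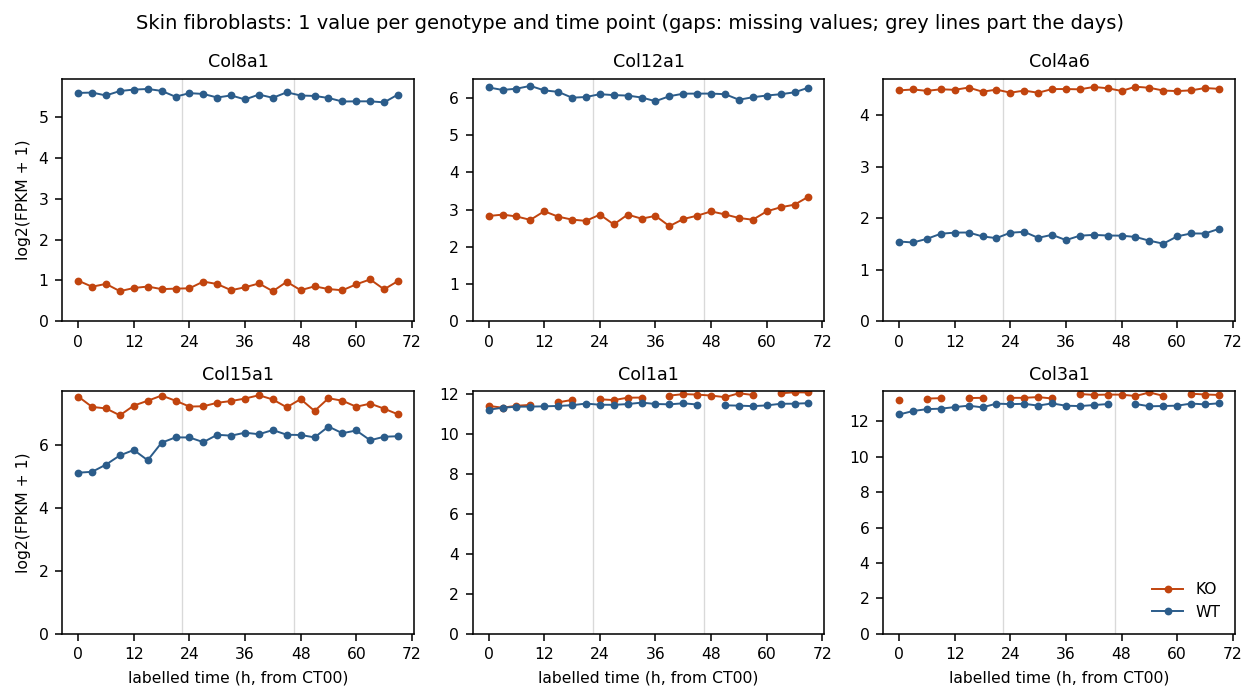
Levels of 6 collagen genes by time point in KO and WT fibroblasts, as log2(FPKM + 1) against the labelled time in hours; breaks in a line are missing values and grey lines part the 3 days. Col8a1 and Col12a1 stay lower and Col4a6 and Col15a1 higher in KO at all 24 time points, and WT Col15a1 climbs over the first day.

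A 24 h wave was sought in each genotype with a cosine and sine beside a linear trend. No member was called in KO fibroblasts (0 of 24; 3 at an unadjusted p under 0.05) or in WT fibroblasts (0 of 25; 0 at an unadjusted p under 0.05) with limma, and none differed between genotypes (0 of 26; 2 at an unadjusted p under 0.05). Of all genes, 0% were called in KO, 0.0339% in WT and 0.00661% for the difference. With day as a factor in place of the linear trend, 2 members were called in KO. The lowest adjusted p of a member was 0.719 in KO and 0.752 in WT.

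Slow changes over the 3 days were more common. Between day 1 and day 3, 11 of 24 members changed in KO fibroblasts, 8 higher and 3 lower, where 25.1% of all genes were called (13.8% higher, 11.3% lower). In WT fibroblasts 16 of 25 members changed, 11 higher and 5 lower, where 30.2% of all genes were called (14% higher, 16.3% lower). The median change was 0.08 for the members and 0.00 for all genes in KO, and 0.08 for the members and -0.01 for all genes in WT.

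Both type I chains rose further in KO. Col1a1 averaged 2901, 3751 and 4136 FPKM on days 1, 2 and 3 in KO (SD 291, 299 and 256; n = 6, 7 and 7), against 2694, 2928 and 2860 FPKM in WT (SD 168, 78.0 and 116; n = 8, 8 and 7). The genotypes overlapped on day 1, and on day 3 the lowest KO value (3719 FPKM) lay above the highest WT value (3021 FPKM). Its change was 0.51 ± 0.04 in KO and 0.09 ± 0.03 in WT, and the difference between these changes, KO minus WT, was 0.42 ± 0.05 (adjusted p = 1.12e-08, limma). For Col1a2 that difference was 0.27 ± 0.05. The multiplexin Col15a1 rose in WT, with daily means of 49.7, 77.8 and 79.3 FPKM, against 158, 162 and 152 FPKM in KO, and its changes differed by -0.76 ± 0.15. Col6a2 fell in KO, with daily means of 833, 802 and 781 FPKM, and rose in WT, with 666, 733 and 770 FPKM, a difference of -0.30 ± 0.03. Col23a1 fell in WT, with daily means of 12, 8.73 and 6.82 FPKM, against 0.510, 0.795 and 1.17 FPKM in KO. In all, 17 of 26 members differed between genotypes in this change, 11 in the positive and 6 in the negative direction, where 25.7% of all genes did. Of these members, Col8a1 and Col23a1 passed the filter only through WT, where they are high, so their calls are a description rather than support. On the list of 54 partner genes, 31 of 47 differed in this change, led by Pcolce, an enhancer of propeptide removal (0.61 ± 0.05), and Crtap, part of a prolyl hydroxylase complex (0.57 ± 0.04). Among the called partner genes, Pcolce2 passed the filter only through WT.

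In liver slices 6 of 8 fibrillar chains tested were lower in KO, and Col5a3 (-0.50 ± 0.22) and Col11a2 (0.25 ± 0.11) did not reach the size limit. Of 23 members tested, 9 were called, all lower: the fibrillar Col1a1, Col1a2, Col3a1, Col5a1, Col5a2 and Col27a1, the type VI chains Col6a2 and Col6a3, and the multiplexin Col15a1. Among all 14560 genes tested, 5.42% were called, 1.26% higher and 4.16% lower. The median difference was -0.50 for the members and -0.34 for all genes, and that of all genes moved to -0.003 after rescaling of the libraries by median of ratios. After that rescaling 7 members were called, all lower, and Col27a1 (-0.73) and Col6a2 (-0.81) were below the size limit, as they were without day 3 (-0.93 and -0.65). In bulk tissue, fewer cells of a type and less RNA per cell cannot be told apart.

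Col3a1 was at 0.547, 3.40 and 384 FPKM (lowest, median and highest of 24) in KO slices, against 18.8, 50.8 and 209 FPKM in WT slices. The KO values were lower at 22 of 24 time points, and the exceptions were the slices CT27 and CT33. The difference was -3.14 ± 0.42 (adjusted p = 1.13e-08, limma), or -2.80 after the rescaling. Col1a1 was at 0.575, 2.91 and 65.2 FPKM in KO, against 6.29, 17.7 and 64.8 FPKM in WT slices, a difference of -2.23 ± 0.31 (adjusted p = 1.56e-08, limma). Col1a2 was at 0.230, 1.64 and 70.8 FPKM in KO, against 3.62, 11.2 and 43.5 FPKM in WT slices, a difference of -1.86 ± 0.34. The ranges of the genotypes overlapped for all 3 genes, and the overlap came from high KO slices.

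Those high values sat in a few KO slices. Col3a1 reached 157 FPKM in the KO slice CT06 and 384 FPKM in CT27, where the next highest KO slice held 41.4 FPKM. Col1a1 reached 47.9 FPKM in CT06 and 65.2 FPKM in CT27, with 10.1 FPKM in the next. In a fit without these slices, chosen after the values were seen, 10 members were called, all lower, and Col3a1 differed by -3.58. Without 6 slices of low correlation with the rest (KO CT09, CT27, CT39 and CT42, and WT CT66 and CT69), 8 members were called.

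Col15a1, a chain of the zone between basement membrane and fibrils, was lower in KO slices at 23 of 24 time points. It was at 0.0694, 1.27 and 13.4 FPKM (lowest, median, highest) in KO, against 5.43, 14.8 and 39 FPKM in WT slices, a difference of -2.73 ± 0.20 (adjusted p = 9.25e-16, limma). In fibroblasts the same gene was higher in KO, as given above. The difference between the tissues was not tested, since their tables were normalised separately. Col6a3 averaged 1.57 ± 2.43 FPKM in KO and 8.63 ± 6.16 FPKM in WT slices (SD, n = 24 each), a difference of -2.03 ± 0.23. Col27a1, a fibrillar chain of cartilage and other tissues, averaged 2.17 FPKM in KO and 5.22 FPKM in WT slices, a difference of -1.02 ± 0.15.

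The type IV pair did not reach the limit in slices. Col4a1 averaged 45.6 ± 21.4 FPKM in KO and 61.8 ± 29.0 FPKM in WT, and Col4a2 30.5 ± 13.5 FPKM in KO and 39.9 ± 17.7 FPKM in WT (SD, n = 24 each). Col18a1 averaged 32.1 FPKM in KO and 22.9 FPKM in WT slices, with a KO maximum of 159 FPKM in the slice CT09. Col8a1 and Col4a6, the widest differences in fibroblasts in either direction, averaged 0.211 and 0.173 FPKM in KO and 0.350 and 0.0738 FPKM in WT slices, too low to be tested.

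The head-to-head pair Col4a1 and Col4a2 kept a near constant ratio in slices, 1.49 ± 0.0882 in KO and 1.54 ± 0.0928 in WT (SD, n = 24 each), and their log2 levels correlated across time points at 0.994 in KO and 0.991 in WT. In fibroblasts their ratio was 2.09 ± 0.114 in KO and 1.47 ± 0.0699 in WT (SD, n = 24 each), with no overlap. Their levels there correlated at 0.745 in KO and 0.347 in WT. The ratio of Col4a5 to Col4a6, the other such pair, was 2.97 ± 0.13 in KO and 13.3 ± 0.775 in WT fibroblasts. In slices Col1a1 and Col1a2 correlated at 0.966 in KO and 0.945 in WT. These are descriptions over 24 libraries of a genotype, in which both genes share the library and its cell make-up.

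Partner genes in slices had 8 of 42 called, all lower, with a median of -0.63. Among all genes 5.42% were called, 4.16% lower, with a median of -0.34. The partner values are given without the rescaling, which moved the median of all genes to -0.003. By smallest p among those called, they were Tgfbr2 (8.30 ± 2.84 FPKM in KO and 18.5 ± 5.43 FPKM in WT), the proteoglycan Bgn (79.0 ± 73.8 FPKM in KO and 214 ± 104 FPKM in WT; SD, n = 24 each), the ligands Tgfb3 (-1.02 ± 0.14) and Tgfb1 (-1.09 ± 0.16), the collagen chaperone Fkbp10 (-1.26 ± 0.21) and Pcolce (-1.17 ± 0.24). Markers of collagen-making cells were lower for 1 of 5 stellate cell and pericyte genes tested (Pdgfrb) and 1 of 5 fibroblast genes (Lum). The summed stellate markers ran from 10.3 to 155 FPKM in KO and 24.7 to 73.8 FPKM in WT slices, and the summed fibroblast markers from 12.2 to 794 FPKM in KO and 53.5 to 257 FPKM in WT slices. Macrophage and Kupffer cell markers were lower for 5 of 5 tested, and their sum ran from 51.9 to 219 FPKM in KO and 127 to 2053 FPKM in WT slices. Of these, Adgre1 averaged below 1 FPKM in KO slices and passed the filter through WT, so its call is a description rather than support. No endothelial marker was called (0 of 5). Across the 24 KO slices, Col3a1 correlated with the summed fibroblast markers at 0.884 and with the summed stellate markers at 0.829, and across the 24 WT slices at 0.469 and 0.639. Col4a1 correlated with the summed endothelial markers at 0.833 in KO and 0.856 in WT and with the summed macrophage and Kupffer cell markers at 0.352 in KO and 0.955 in WT, and Col18a1 with the summed hepatocyte markers at 0.908 in KO and 0.599 in WT. All these points share library and cell make-up. The part of these cell types in the collagen differences was not tested.

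**Figure D4:**
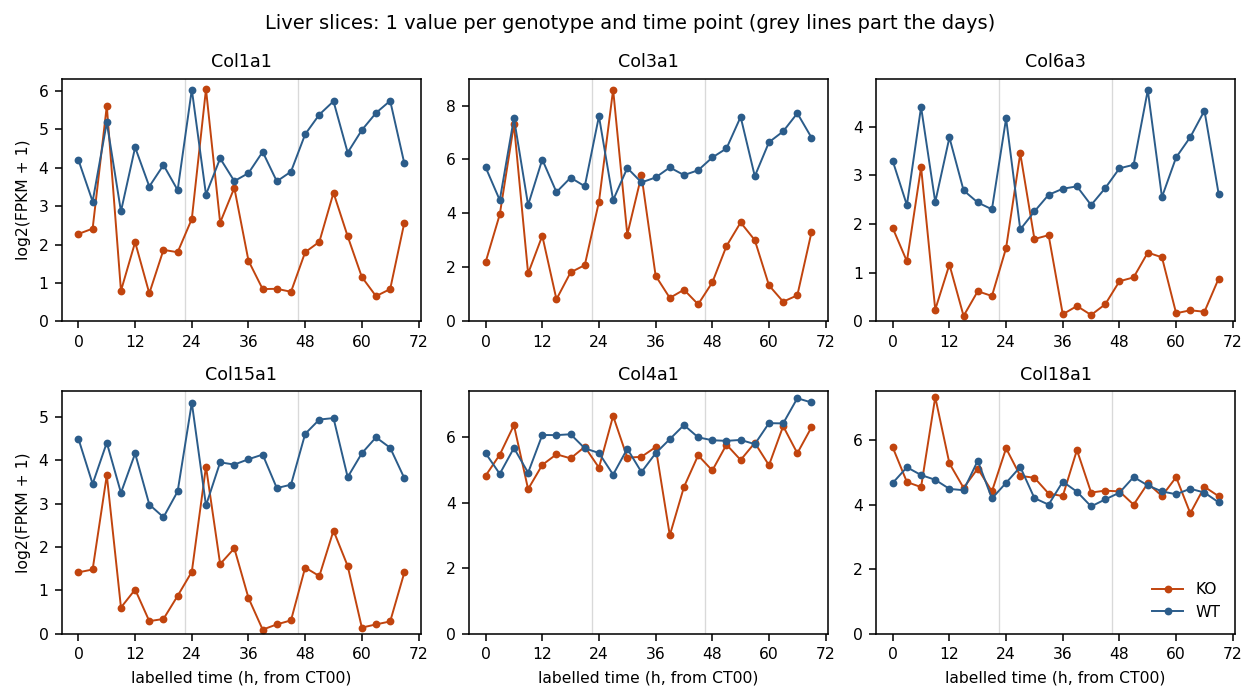
Levels of 6 collagen genes by time point in KO and WT liver slices, as log2(FPKM + 1) against the labelled time in hours; grey lines part the 3 days. The KO lines of Col1a1, Col3a1, Col6a3 and Col15a1 lie below the WT lines except at CT27, at CT06 for Col1a1 and at CT33 for Col3a1, with a KO peak of 384 FPKM of Col3a1 at CT27, while Col4a1 and Col18a1 intermingle.

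A 24 h wave was called for 8 of 23 members in KO slices, where 11.2% of all genes were called. The largest was that of Col3a1, with an amplitude of 1.88 ± 0.43 on the log2 scale, and Col1a1 (1.32 ± 0.30), Col15a1 (1.11 ± 0.19), Col16a1 (0.91 ± 0.23), Col6a3 (0.87 ± 0.18), Col20a1 (0.69 ± 0.11), Col27a1 (0.62 ± 0.12) and Col4a5 (0.46 ± 0.11) followed. Their fitted peaks fell between 2.26 and 5.09 h of the labelled day. These calls rested on few slices. Without the slice CT15 2 members were called, without CT54 5, without CT06 and CT27 4, without day 2 or without day 3 none, and without the 6 slices of low correlation none. In WT slices 0 of 23 members were called (2 at an unadjusted p under 0.05, limma; 2.11% of all genes), and for the difference between genotypes 0 of 23 (9 at an unadjusted p under 0.05; 4.17% of all genes). With day as a factor in place of the linear trend, 2 members were called in WT slices and 8 for the difference between genotypes. Stellate markers (1 of 5), macrophage markers (2 of 4) and partner genes (8 of 40) also had waves called in KO slices.

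Some collagens rose over the days in WT slices. Between day 1 and day 3, 9 of 23 members were higher on day 3 and 0 lower, where 18.1% of all genes were called (8.92% higher, 9.22% lower). They were the type I, III and V chains Col1a1, Col1a2, Col3a1, Col5a1 and Col5a2, the type IV chains Col4a1, Col4a2 and Col4a5, and Col12a1. Col1a2 changed by 1.41 ± 0.40, with daily means of 8.70, 13.5 and 21.4 FPKM (SD 7.88, 12.5 and 8.65; n = 8 each). Col4a1 changed by 0.72 ± 0.16, with daily means of 50.2, 50.2 and 85.0 FPKM (SD 15.8, 17.9 and 35.6). Without the 6 slices of low correlation, 5 members were called. Beside them, in WT slices 4 of 5 macrophage markers and both smooth muscle markers tested rose and 3 of 5 hepatocyte markers fell. Of the stellate cell and pericyte markers Lrat (1.12 ± 0.31) and Des (0.60 ± 0.19) rose and Rgs5 (-0.97 ± 0.29) fell. Pdgfrb, Reln and Hand2 were not called. Of the fibroblast markers Lum rose (1.16 ± 0.40), and Pdgfra, Thy1, Dpt and Dcn were not called. The biliary marker Sox9 fell (-1.02 ± 0.19), and no endothelial marker was called. The part of these markers was not tested. In KO slices 0 of 23 members were called (1 at an unadjusted p under 0.05, limma), where 2.62% of all genes were (1.08% higher, 1.54% lower). The difference between genotypes in this change was called for 0 of 23 members (7 at an unadjusted p under 0.05) and for 0.0412% of all genes, so the changes are not shown to differ.

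In the short liver course Col18a1, Col4a1 and Col4a2 had the highest means over all times in both genotypes. The fibrillar Col1a1 ran from 0.335 to 4.41 FPKM in KO and from 0.340 to 3.73 FPKM in WT samples. With time 5 of 13 members tested changed in KO and 10 of 14 in WT, where 66.6% and 66.2% of all genes were called. The pattern shared by both genotypes was a rise of Col4a1 and Col4a2 and a fall of Col18a1 and Col5a3.

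Col4a1 was at 5.07, 5.71 and 6.85 FPKM at T00 and 40.5, 26.9 and 25.6 FPKM at T24 in KO, against 3.91, 3.08 and 4.58 FPKM at T00 and 20.6, 32.0 and 24.2 FPKM at T24 in WT. Each T24 sample was above each T00 sample of its genotype, and most of the rise was present at T06. The change at T24 was 2.20 ± 0.18 in KO (adjusted p = 1.70e-05, limma) and 2.44 ± 0.19 in WT (adjusted p = 8.49e-06). Col4a2 changed by 1.89 ± 0.16 at T12 in KO and 2.25 ± 0.16 at T24 in WT. Its mean was 4.48 ± 0.417 FPKM at T00 and 18 ± 4.77 FPKM at T24 in KO, against 2.87 ± 0.520 FPKM at T00 and 17.4 ± 1.90 FPKM at T24 in WT (SD, n = 3 each).

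Col18a1 was at 137, 141 and 163 FPKM at T00 and 29.9, 18 and 24.9 FPKM at T24 in KO, against 108, 101 and 114 FPKM at T00 and 31.1, 23.8 and 32.8 FPKM at T24 in WT. No T24 value reached a T00 value in either genotype. It fell by 2.57 ± 0.30 in KO and by 1.86 ± 0.15 in WT. Col5a3, a minor type V chain, averaged 8.09 ± 0.963 FPKM at T00 and 0.469 ± 0.423 FPKM at T24 in KO, against 4.74 ± 0.598 FPKM at T00 and 0.545 ± 0.0926 FPKM at T24 in WT (SD, n = 3 each). Its changes were -2.66 ± 0.30 in KO and -1.89 ± 0.15 in WT. Col13a1, a transmembrane chain of cell contacts, changed most at T06 in KO (1.25 ± 0.21, higher) and most at T24 in WT (-0.88 ± 0.28, lower). In WT Col14a1 (-1.07 ± 0.25), Col15a1 (-1.21 ± 0.35) and Col27a1 (-2.01 ± 0.32) were also called lower at T24, and Col6a3 (1.29 ± 0.37) and Col16a1 (0.97 ± 0.34) higher at T06. In KO Col14a1, Col15a1 and Col6a3 were tested and not called, while Col27a1 and Col16a1 averaged 0.856 and 0.847 FPKM and were not tested for time. The test of the difference between genotypes called Col27a1 and none of the other 4.

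Col27a1 was at 0.536, 0.490 and 0.369 FPKM at T00 and 0.445, 1.11 and 1.18 FPKM at T24 in KO, against 7.04, 14.4 and 5.08 FPKM at T00 and 1.47, 1.28 and 1.05 FPKM at T24 in WT. The genotypes were far apart at T00 and overlapped at T24. Its time courses differed (2.37 ± 0.38 at T24, adjusted p = 0.0138, limma), as 1 of 14 members did, where 1.75% of all genes were called. That call was lost without KO replicate 2, without KO replicate 3 or without WT replicate 1. Over all times the difference of Col27a1 was -1.37 ± 0.22 (adjusted p = 1.60e-04, limma). With means of 0.856 FPKM in KO and 4.52 FPKM in WT, it entered these tests through WT, where it is high, so both calls are a description rather than support.

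Over all 4 times, 4 of 14 members differed between genotypes, 3 higher and 1 lower in KO, where 16.1% of all genes were called (6.41% higher, 9.65% lower). Beside Col27a1 these were Col4a2 (0.45 ± 0.09, adjusted p = 0.00208), Col4a1 (0.40 ± 0.09, adjusted p = 0.00407) and Col5a3 (0.50 ± 0.14, adjusted p = 0.0156; all limma). The median difference was -0.07 for the members and -0.01 for all genes. With 1 mean per genotype and replicate number, 3 against 3, 2 members were called, and Col4a1 and Col5a3 were not. The Col5a3 call was also lost without KO replicate 1 or 3 or WT replicate 2 or 3, with differences of 0.41 to 0.51. Col1a1 (-0.07 ± 0.20), Col1a2 (0.01 ± 0.20) and Col3a1 (-0.10 ± 0.24) were not called, and the highest single value among them was 15.8 FPKM, of Col3a1 in WT.

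**Figure D5:**
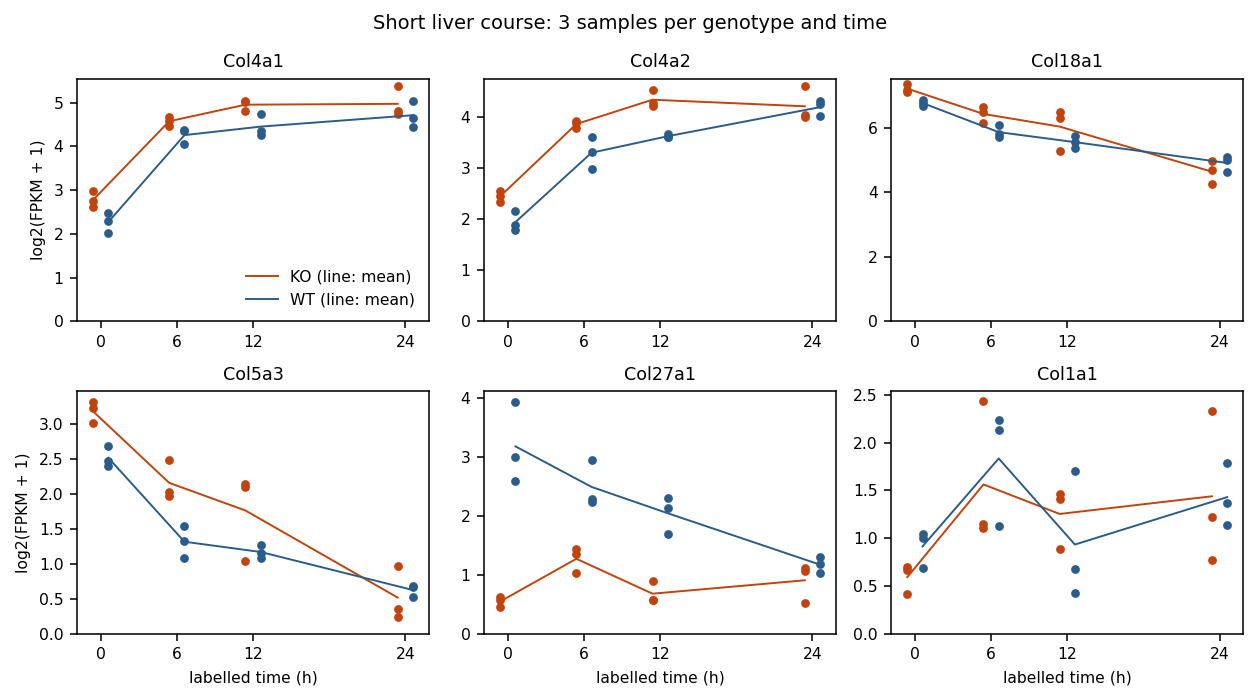
Levels of 6 collagen genes in the short liver course as log2(FPKM + 1) against the labelled time in hours; points are the 3 KO (left of each pair) and 3 WT (right) samples and lines join the means. Col4a1 and Col4a2 climb and Col18a1 and Col5a3 drop in both genotypes, while Col27a1 stands between 5.08 and 14.4 FPKM in WT and at most 0.536 FPKM in KO at T00.

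Partner genes changed with time for 29 of 36 tested in KO, 22 higher and 7 lower, and for 24 of 36 in WT, 17 higher and 7 lower, against the 66.6% and 66.2% of all genes given above, so the WT share is at the background. At the time of its widest change, T12 in KO and T06 in WT, Tgfb1 was up by 1.60 ± 0.14 in KO and 1.59 ± 0.09 in WT, and Tgfb3 by 2.70 ± 0.31 in KO and 2.59 ± 0.23 in WT. The collagen chaperone Serpinh1 was up at T24 by 3.18 ± 0.33 in KO and 2.62 ± 0.46 in WT. Between genotypes 10 of 37 partner genes were called, where 16.1% of all genes were. They were led by Loxl4, a lysyl oxidase (1.98 ± 0.20, higher in KO). Loxl4 was too low in WT to be tested for time there and passed the filter through KO, where it is high. Its call is thus a description rather than support. Biliary markers rose for 4 of 4 tested in both genotypes. Endothelial markers changed for 4 of 5 in KO and 5 of 5 in WT, in both directions. Lyve1, Cdh5 and Pecam1 rose and Kdr fell in both genotypes, and Stab2 was called lower in WT only. Hepatocyte markers fell for 4 of 5 in KO and 3 of 5 in WT, where Alb gave no test result. Across the 12 samples of a genotype Col4a1 correlated with the summed endothelial markers at 0.942 in KO and 0.963 in WT, all sharing time and library. Col18a1 correlated with the summed hepatocyte markers at 0.758 in KO and 0.139 in WT, with the stellate markers at -0.833 in KO and -0.750 in WT, and with the endothelial markers at -0.563 in KO and -0.859 in WT. Sums leave out missing values, and Alb gave no time test in WT. The hepatocyte sum may thus lack Alb in some WT samples, so its correlations cannot be compared between genotypes. The part of these markers in the collagen changes was not tested.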

How the data were processed

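Poly(A) RNA was made into stranded libraries and read as 50-base single reads, per the labels' protocols. The authors deposited FPKM per gene, made with TopHat2 2.1.0 and Cuffdiff on GRCm38, per the submitters' processing notes. Not given in the sources used here are the annotation release, how libraries were scaled and whether counting used strand. In the long courses 3 runs per time point and genotype stand in 1 column, and in the short course each of 24 libraries had 2 runs. One run of the short course carries a time in its characteristics that differs from its title, and the title was followed.

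A value was missing where its status was FAIL or HIDATA, or where it was exactly 0 in a gene with a genotype median of at least 5 FPKM. From the deposited FPKM, log2(FPKM + 1) was computed, which understates changes of low genes. Each comparison tested the genes that averaged 1 FPKM or more over its own libraries, with limma 3.58.1 moderated tests (R 4.3.3), and p-values were adjusted by Benjamini-Hochberg over all genes tested. Called means an adjusted p below 0.05, and for KO against WT in fibroblasts and slices also a difference of at least 1 (log2). Waves of 24 h were fitted with a linear trend, and days were compared as 8 time points each. Tests were checked on simulated data. Tables and figures used Python 3.11.15. A fixed set of 16 members from the main classes was always named, with up to 8 called members per direction by size of difference and up to 6 called partner genes per comparison by smallest p; a few further members are named to complete a count or a chain pair. Alternatives covered the pseudocount, the filter, rescaling by median of ratios, zeros kept, time terms, and libraries, days or replicates left out. The members and lists were chosen with earlier results of these data known.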

Additional observations from a re-analysis of the deposited data

Results flagged for a closer look

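For 17 collagens in fibroblasts, the change from day 1 to day 3 differed between genotypes by a test of the difference itself (limma, Benjamini-Hochberg over all genes). The values are KO minus WT on the log2(FPKM + 1) scale. Col8a1 and Col23a1 entered this test through WT alone, so their values are a description rather than support. The change was more positive in KO for Col23a1 (1.21), Col1a1 (0.42), Col27a1 (0.40), Col14a1 (0.39), Col11a1 (0.30), Col1a2 (0.27), Col12a1 (0.26), Col4a2 (0.20), Col5a1 (0.19), Col8a1 (0.17) and Col4a1 (0.14). It was more negative in KO for Col15a1 (-0.76), Col7a1 (-0.55), Col18a1 (-0.50), Col6a2 (-0.30), Col5a3 (-0.27) and Col6a1 (-0.23). In the short liver course the change of Col27a1 from T00 to T24 differed by 2.37, from a test of the difference between time courses. Col27a1 entered that test through WT, where it is high, so this value too is a description rather than support. The call was also lost on leaving out some of the replicates singly.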

How the results depend on the processing

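No result changed direction under any alternative run. With no size limit 26 of 26 members tested were called between genotypes in fibroblasts and 16 of 23 in slices. Among all genes, 12409 of 15140 in fibroblasts and 10775 of 14560 in slices had an unadjusted p under 0.05 (limma). Passing without the limit was thus common to most genes. With day as a factor, waves were called for 2 members in KO fibroblasts and 2 in WT slices, and their difference for 8 in slices. The wave count in KO slices was 4 with no filter on low values, 0 without day 2, 0 without day 3, 0 without the 6 slices of low correlation, 4 without CT06 and CT27 (chosen after seeing the data), and 2 to 10 leaving out each time point in turn. In WT slices it was 1 after rescaling and 0 to 2 leaving out each time point, and for the difference of waves 2 with a pseudocount of 0.1. The WT slice count for day 3 against day 1 was 5 without the 6 slices. In the short course, 1 mean per genotype and replicate number left 2 calls between genotypes, leaving out each replicate gave 3 to 5, and the call for different time courses was 0 to 1. The causes of these moves were not tested.

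Same-numbered KO and WT samples of the short course deviated together no more than others (correlations from -0.113 to 0.0893 over 12 pairs). Across times within a genotype, same-numbered samples had median correlations of 0.0207 in KO and 0.0407 in WT (18 pairs each, 4 and 2 of them above 0.1), against -0.017 and -0.0215 for different numbers. Since not every pair passed 0.1 and the labels name no shared animal or day, the numbers were not taken to pair the samples. With the replicate block, 4 members were called between genotypes, 5 for time in KO, 9 for time in WT and 1 for different time courses. Depth is unknown, which leaves the precision of low genes unstated.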
